A study of Mus musculus with 17 samples.

Results

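The liver's response to unfolded proteins and to amino acid shortage was followed through 36 genes on 17 arrays of mouse liver, of 18193 genes represented on the arrays. The genes were listed by name, and every probe set that the array annotation ties to one of them alone was taken, which gave 86 of 45037 probe sets. All 36 genes had a probe set and 10 had a single one. A gene with several probe sets is summarised by the one that was brightest on average across the 17 arrays, and levels are log2 expression values, on which a difference of 1 is a doubling. In order of role, they are 14 chaperones and folding enzymes of the endoplasmic reticulum (ER), 4 genes of ER-associated degradation, 3 sensors, 6 transcription factors, 4 feedback regulators, 3 enzymes of amino acid synthesis, and a secreted hormone with a lipoprotein receptor. The rule that picks their probe sets uses names only.

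As background, proteins bound for secretion fold in the ER, and hepatocytes, which make most plasma proteins, keep a large folding apparatus. When unfolded chains accumulate, IRE1 (gene Ern1) splices Xbp1 mRNA, ATF6 is cut free from the membrane to become a transcription factor, and PERK (gene Eif2ak3) phosphorylates the translation factor eIF2, which lowers general protein synthesis and favours translation of ATF4. Amino acid shortage reaches the same ATF4 branch through the kinase GCN2, and ATF4 targets include the factors DDIT3 (CHOP), ATF5 and ATF3, the pseudokinase TRIB3 and asparagine synthetase. Splicing, cleavage, phosphorylation and translation are not read by mRNA levels, so the values below concern transcript abundance only.

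The livers came from male mice given 1 gavage of corn oil or of TCDD at 1000 µg/kg in corn oil and were taken 19 h later. TCDD is a chlorinated dioxin and a strong ligand of the aryl hydrocarbon receptor, AHR, a ligand-activated transcription factor. Wild-type C57BL/6J mice were 15 weeks old and were bred in Finland, with 5 arrays for corn oil and 6 for TCDD. Ahr-/- mice on a C57BL/6J background were 10 weeks old and came from The Jackson Laboratory, with 3 arrays for corn oil and 3 for TCDD. Genotype, age and source therefore cannot be told apart. The labels do not say that each array is a separate mouse, so the tests measure the spread between arrays.

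The promoters are shown first because several of the genes share a known regulatory element. RefSeq windows of 250 bases before the annotated start (build GRCm38.p6) were found for 33 of the 36 genes. They were searched on both strands for the ER stress element (CCAAT, 9 bases of any kind, then CCACG), to which ATF6 binds together with NF-Y. It was present in 8 of the 33 (24.2%), against 0.13% of all 27025 genes in the table and 0.113% of its windows. The matched stretches follow, read in the direction of the element, with its fixed letters in capitals and its spacer in lower case.
Hspa5, chr2:34772025-34772043, plus strand: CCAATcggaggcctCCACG
Hsp90b1, chr10:86705638-86705656, minus strand: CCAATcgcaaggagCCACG
Hsp90b1, chr10:86705533-86705551, plus strand: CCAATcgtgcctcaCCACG
Calr, chr8:84847075-84847093, plus strand: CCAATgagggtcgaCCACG
Canx, chr11:50325800-50325818, minus strand: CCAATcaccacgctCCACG
Pdia6, chr12:17266491-17266509, plus strand: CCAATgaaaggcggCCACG
Dnajc3, chr14:118937827-118937845, plus strand: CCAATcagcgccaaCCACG
Creld2, chr15:88819520-88819538, minus strand: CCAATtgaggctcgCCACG
Syvn1, chr19:6046532-6046550, plus strand: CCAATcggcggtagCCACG
All but Syvn1, which encodes the ubiquitin ligase of ER-associated degradation, belong to the folding genes.

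A second element, TGATGNAA, is the core of the sites bound by C/EBP-ATF4 dimers in amino acid response genes. It was found in 7 of the 33 windows (Herpud1, Atf3, Nupr1, Chac1, Asns, Fgf21 and Vldlr; 21.2%), against 3.91% of all genes. The letters TGACGTGG, a core of the unfolded protein response element, were in none of the 33 and in 0.603% of all genes, and TNGCGTG, the core bound by AHR with ARNT, was in 3 (Edem1, Atf4 and Psat1; 9.09%), against 4.76%. No match of any of these 4 motifs overlapped another among the members. A match describes letters and not occupancy, and a missing match concerns only this window. The ER stress element and TGATGNAA are known from genes of these responses, and the members were listed by name. Their higher share among members therefore describes the list and is no test. Windows are printed for Hspa5, Asns, Ern1 and Eif2ak3, on the gene's own strand, with any match in capitals. Hspa5 and Asns carry 1 match each, while Ern1 and Eif2ak3, both lower after TCDD in wild type, carry none of the 4.
Hspa5, chr2:34771840-34772089, plus strand: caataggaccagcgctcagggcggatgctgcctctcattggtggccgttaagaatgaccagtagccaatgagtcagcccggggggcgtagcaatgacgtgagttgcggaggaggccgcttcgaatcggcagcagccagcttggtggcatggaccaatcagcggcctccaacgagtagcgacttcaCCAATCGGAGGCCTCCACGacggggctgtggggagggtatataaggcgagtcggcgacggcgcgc
Asns, chr6:7693210-7693459, minus strand: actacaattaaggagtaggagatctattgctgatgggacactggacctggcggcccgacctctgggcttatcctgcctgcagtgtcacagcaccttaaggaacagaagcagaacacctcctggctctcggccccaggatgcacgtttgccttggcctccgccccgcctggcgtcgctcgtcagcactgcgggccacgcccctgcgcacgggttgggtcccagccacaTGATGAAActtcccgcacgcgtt
Ern1, chr11:106487797-106488046, minus strand: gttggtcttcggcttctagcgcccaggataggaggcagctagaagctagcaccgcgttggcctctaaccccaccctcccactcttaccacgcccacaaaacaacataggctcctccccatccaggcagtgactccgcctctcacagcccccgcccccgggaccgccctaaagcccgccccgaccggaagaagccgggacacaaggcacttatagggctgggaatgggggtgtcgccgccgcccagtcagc
Eif2ak3, chr6:70844265-70844514, plus strand: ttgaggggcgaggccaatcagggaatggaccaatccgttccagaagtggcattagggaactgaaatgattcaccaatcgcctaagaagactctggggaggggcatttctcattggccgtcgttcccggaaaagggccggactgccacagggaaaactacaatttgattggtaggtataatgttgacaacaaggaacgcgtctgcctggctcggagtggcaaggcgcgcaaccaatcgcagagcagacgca

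A pair of arrays stood apart. On wild-type TCDD replicate 6 the 3' probe set of Gapdh exceeded the 5' one by 1.98, against -0.165 to -0.0112 on the other 16 arrays, which bears on RNA quality, and the residual spread was 0.319 against 0.124 to 0.173. On knockout TCDD replicate 1 the AHR target Cyp1a1 read 12.64, while replicates 2 and 3 of that group read 5.32 and 5.34, with 5.81 to 7.18 on knockout oil arrays and 15.08 to 15.25 on wild-type TCDD arrays, so this array goes against its label. The Ahr probe set did not separate the genotypes (9.52 to 10.34 on wild-type oil arrays, 9.29 to 9.70 on knockout oil arrays). For each difference printed below, the value without either array is given where it changes the call, the sign or the size by over 1.5 times. Scan day 1 held 1 wild-type oil array, 2 wild-type TCDD arrays and 2 knockout oil arrays, and day 2 held 3, 4 and 1 of these with 2 knockout TCDD arrays. Day 3 held 1 wild-type oil and 1 knockout TCDD array. With no knockout TCDD array on day 1, treatment within knockout is partly tied to scan day. In a value within a day, an arm of 1 array is assumed to vary like the other groups.

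**Figure D1:**
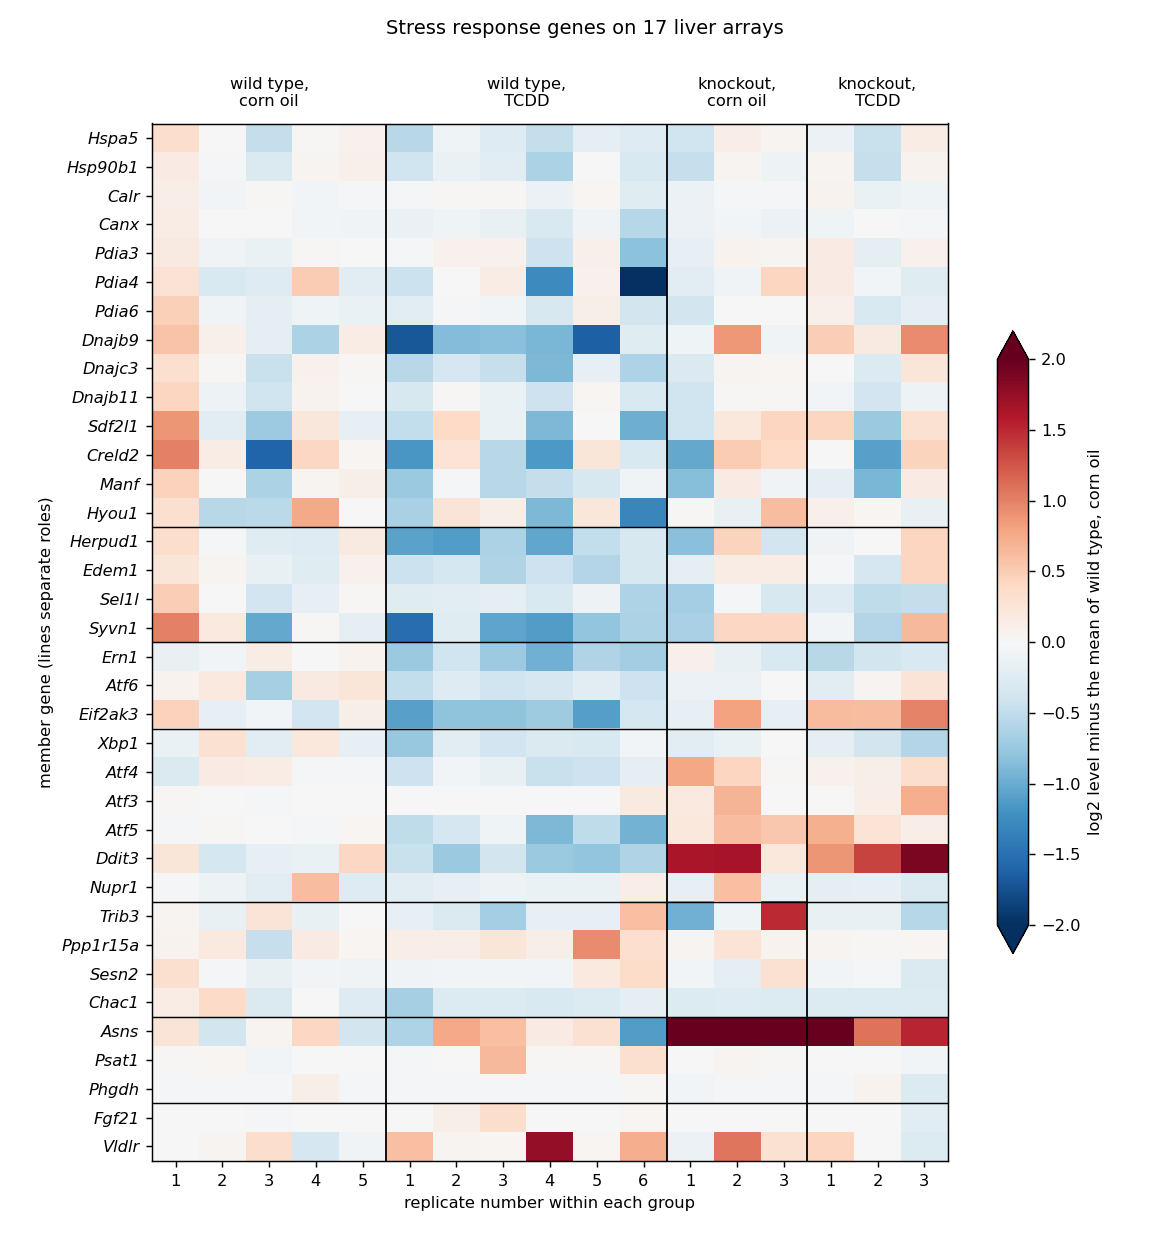
Levels of the 36 genes on each of the 17 arrays, as log2 level minus that gene's mean over the 5 wild-type corn oil arrays; rows are genes grouped by role with lines between roles, columns are arrays, and the colour scale stops at 2 in either direction. Asns and Ddit3 are red on most knockout arrays, and the folding, degradation and sensor genes are mostly blue on the wild-type TCDD arrays.

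After TCDD in wild-type liver, most of the response lay lower and 2 sensors fell. Of the 36 genes, 29 had a difference below 0, with a median of -0.29, whereas the median was 0.0092 over all 18193 genes. Ern1 and Eif2ak3 passed the test (limma, Benjamini-Hochberg adjusted over all probe sets at 0.05, here and throughout), both lower. The share called lower was 2.56% among all genes (6.32% in either direction) and 4.13% (10.2% in either direction) among the 11224 genes whose mean over the 17 arrays exceeded the array medians, so 2 of 36 is near the background. At an unadjusted p under 0.05 there were 15 of 36 genes, and 24 of the 86 member probe sets. Among all probe sets the count was 5132 of 45037. It was 4979 of the 23017 that exceeded the array median on at least 3 arrays. Corn oil and TCDD arrays did not overlap for 6 genes, all lower (Canx, Herpud1, Edem1, Ern1, Atf5 and Ddit3), against 2.4% of all genes and 3.87% of those above the array medians.

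Ern1 encodes IRE1, the kinase and endoribonuclease that splices Xbp1. It read 9.53, 9.62, 9.83, 9.66 and 9.74 with corn oil and from 8.72 to 9.28 (median 8.96) with TCDD. Every TCDD array lay below every oil array, and the level was 1.61-fold lower (-0.69 ± 0.094 SE, adjusted p = 0.000452 by limma). The call held when any 1 of the 17 arrays was left out (-0.75 to -0.64) and with scan day as a block (-0.68, adjusted p = 0.00155). Within scan day 1, with 1 oil array, the difference was -0.43 (adjusted p = 0.425), and within day 2 it was -0.78 (adjusted p = 0.0157). Of the 5 Ern1 probe sets, 3 exceeded the array medians and all 3 were lower.

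Eif2ak3 encodes PERK. With corn oil it read 8.58, 7.95, 8.06, 7.74 and 8.24, and with TCDD 7.02 to 7.76 (median 7.31), so that the highest TCDD array, replicate 6, reached just above the lowest oil array. The level was 1.75-fold lower (-0.81 ± 0.20, adjusted p = 0.0320 by limma). This call was lost without any 1 of 9 arrays (-0.90 to -0.69 over all 17 omissions), with scan day as a block (-0.78, adjusted p = 0.0607), within day 1 (-1.41, adjusted p = 0.397) and within day 2 (-0.54, adjusted p = 0.304). Without replicate 6 it was -0.90 (adjusted p = 0.0190). The third sensor, Atf6, read 9.41, 9.53, 8.67, 9.52 and 9.59 with corn oil and 8.86 to 9.14 (median 8.98) with TCDD, and did not pass the test (-0.35 ± 0.14, adjusted p = 0.294). Oil replicate 3 alone lay below the TCDD arrays, and without that array the difference was -0.52 (adjusted p = 0.00189 by limma). That array was picked here for its low Atf6 value and did not stand apart in quality, so this p-value lends no support.

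All 14 folding genes had a difference below 0, with a median of -0.33, and none passed the test. Among genes above the array medians 44.1% lay below 0. The same 14 lay below 0 without wild-type TCDD replicate 6 (median -0.25), without wild-type oil replicate 1, on which all 14 were high (median -0.20), and within scan day 2 (median -0.20). They did within day 1 too (median -0.58), where that high array was the only oil array, and 13 did with array weights, where Calr was above 0. Hspa5, the Hsp70 chaperone of the ER that also restrains the sensors, read 15.02, 14.68, 14.19, 14.69 and 14.76 with corn oil and 14.12 to 14.59 (median 14.41) with TCDD. The groups overlapped and its difference was -0.30 ± 0.15 (adjusted p = 0.493).

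Dnajb9, an ER co-chaperone of HSPA5 that also holds IRE1 inactive, had the largest difference of the list. Dnajb9 read 12.46, 11.99, 11.71, 11.25 and 12.03 with corn oil and 10.19, 11.03, 11.06, 10.97, 10.26 and 11.65 with TCDD, or -1.03 ± 0.29 (adjusted p = 0.0676 by limma). The arrays overlapped through TCDD replicate 6 at 11.65, and without that array it passed the test (-1.19, adjusted p = 0.0269). Pdia4, a disulfide isomerase, had the next largest difference among the folding genes (-0.72 ± 0.45), but its lowest value, 7.27, was on replicate 6, and without that array the difference was -0.29. Also without it, Hyou1 moved from -0.38 to -0.19, Sdf2l1 from -0.35 to -0.23 and Pdia3 from -0.16 to -0.033. The remaining folding genes ranged from -0.051 (Calr, a lectin chaperone; -0.014 without replicate 6) to -0.50 (Dnajc3, another HSPA5 co-chaperone).

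The 4 genes of ER-associated degradation, which move misfolded chains to the proteasome, were all below 0 (median -0.61), and none passed the test. Herpud1, a membrane scaffold of the retrotranslocation complex, read 13.05, 12.67, 12.47, 12.45 and 12.88 with corn oil and 11.59 to 12.39 (median 11.86) with TCDD. No TCDD array reached an oil array (-0.78 ± 0.22, adjusted p = 0.0687). Without TCDD replicate 6 Herpud1 passed the test (-0.87, adjusted p = 0.0442 by limma), and its other probe set was lower too (-0.72). Edem1, which extracts mannose-trimmed glycoproteins from the folding cycle, read 11.08, 10.91, 10.71, 10.61 and 10.93 with corn oil and 10.24 to 10.53 (median 10.42) with TCDD, again without overlap (-0.45 ± 0.12, adjusted p = 0.0570). Syvn1 was scattered, at 13.24, 12.44, 11.22, 12.26 and 12.04 with corn oil and 10.71 to 12.00 (median 11.32) with TCDD (-0.89 ± 0.35, adjusted p = 0.266), and Sel1l, its partner, differed by -0.28.

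Among the transcription factors, 5 of 6 were below 0 in wild-type liver after TCDD and none passed the test. Atf5, an ATF4 target abundant in liver, was tight with corn oil, at 12.15, 12.21, 12.20, 12.14 and 12.23, and spread with TCDD from 11.24 to 12.11 (median 11.68). All TCDD arrays were lower (-0.54 ± 0.15, adjusted p = 0.0577). Ddit3, the pro-apoptotic factor CHOP, read 6.82, 6.22, 6.42, 6.44 and 6.99 with corn oil and 5.79 to 6.21 (median 5.90) with TCDD (-0.62 ± 0.25, adjusted p = 0.303). Here too no array of one group entered the range of the other, although the gap between them was narrow.

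Xbp1, the target of IRE1 splicing, read 12.62, 13.05, 12.53, 12.96 and 12.59 with corn oil and 12.00 to 12.70 (median 12.45) with TCDD (-0.33 ± 0.13, adjusted p = 0.238), and all 4 of its probe sets were lower. Atf4 read 10.43, 10.89, 10.88, 10.70 and 10.70 with corn oil and 10.28 to 10.67 (median 10.43) with TCDD (-0.27 ± 0.13, adjusted p = 0.427). Both genes overlapped between groups. Nupr1, a small stress-induced chromatin protein, differed by -0.10, and Atf3 stayed below the array medians in all 4 groups, so that its difference of 0.026 (-0.0034 without TCDD replicate 6) carries no level.

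The 7 members with a difference above 0 did not pass the test. Vldlr, the very low density lipoprotein receptor and a PERK-ATF4 target, read 4.49, 4.55, 4.83, 4.15 and 4.41 with corn oil and 4.52 to 6.24 (median 4.81) with TCDD, a difference of 0.54 ± 0.30 (adjusted p = 0.641) that overlapped and had its highest value on replicate 4. Ppp1r15a, the eIF2 phosphatase subunit GADD34 that ends the response, read 4.65, 4.77, 4.12, 4.74 and 4.63 against 4.70 to 5.53 (median 4.77), or 0.32 ± 0.15 (adjusted p = 0.430). Both differences lay within overlapping groups. Psat1, of serine synthesis, read 3.28, 3.31, 3.22, 3.26 and 3.26 with corn oil and 3.24 to 3.91 (median 3.29) with TCDD (0.16 ± 0.097), and Sesn2, an mTORC1 inhibitor, read 6.22, 5.86, 5.75, 5.85 and 5.83 against 5.83 to 6.27 (median 5.85), or 0.057 ± 0.11 (-0.0045 without TCDD replicate 6). The feedback genes Trib3 and Chac1, a glutathione-degrading enzyme, differed by -0.14 (-0.29 without TCDD replicate 6) and -0.33.

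Asns, which makes asparagine and is a standard readout of the amino acid response, did not pass the test, with 6.46, 5.83, 6.25, 6.60 and 5.83 with corn oil and 5.09 to 6.96 (median 6.43) with TCDD (0.018 ± 0.33). Its lowest value was on TCDD replicate 6, and without that array the difference was 0.24 ± 0.29. Phgdh, the first enzyme of serine synthesis, differed by -0.023. Fgf21, the liver hormone that ATF4 and PPARα induce, lay below the array medians in all groups: it read 1.98 to 2.02 with corn oil and 1.99 to 2.35 (median 2.03) with TCDD. Fgf21 and Atf3 were the only members below the array medians in all 4 groups, and 34 of 36 exceeded them in at least 1.

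**Figure D2:**
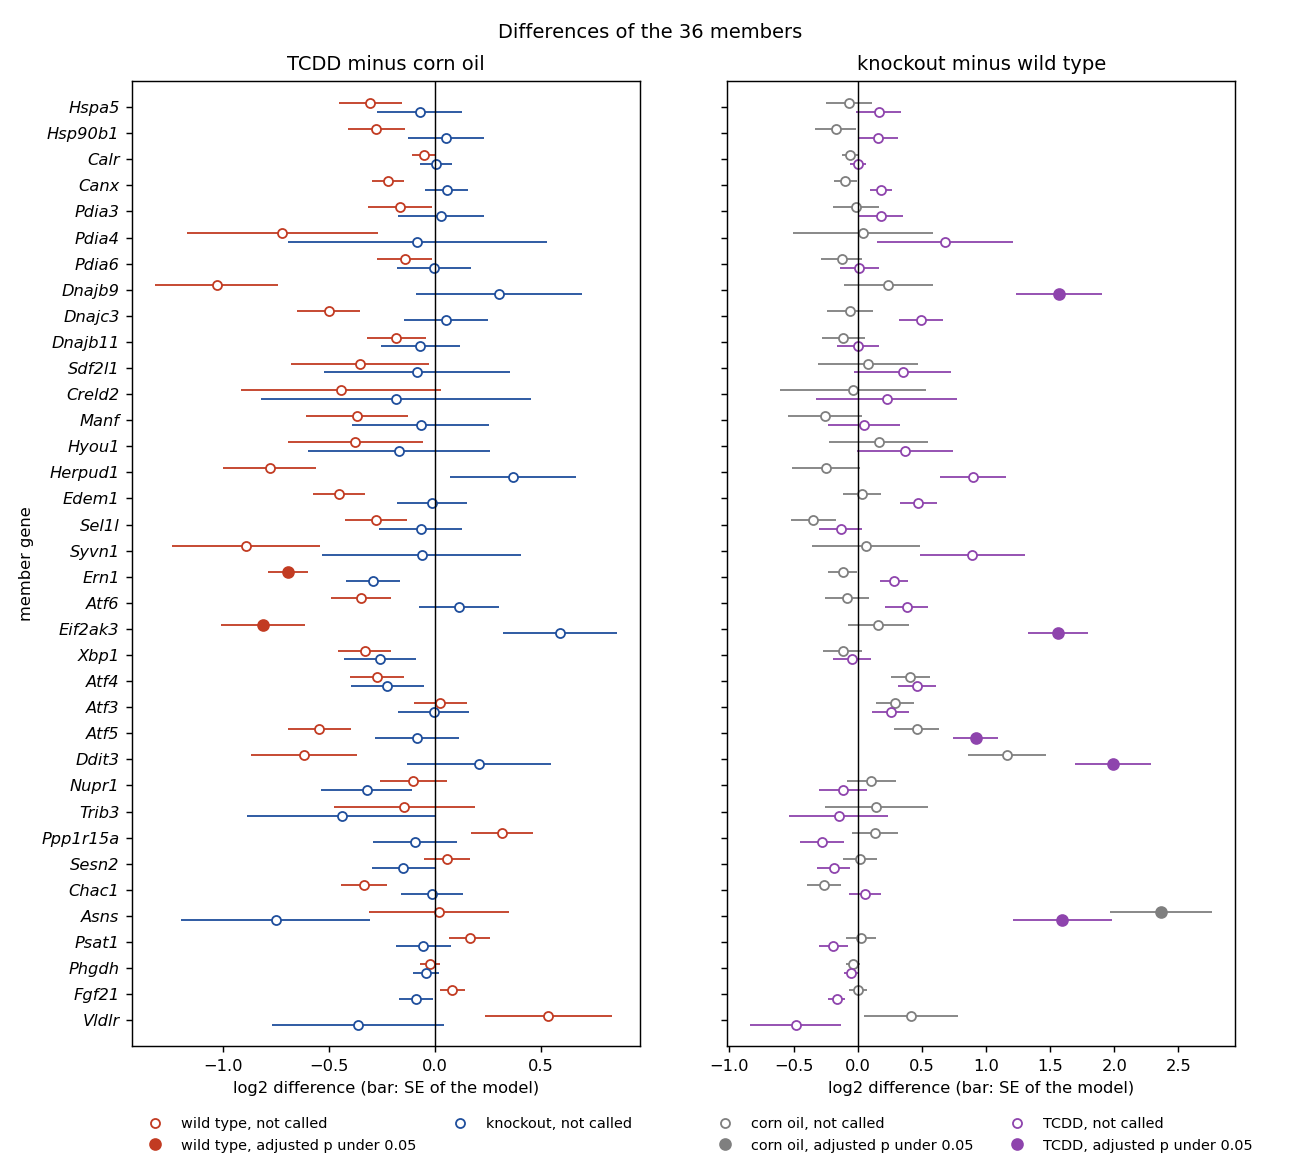
Differences of the 36 genes on the log2 scale with the standard error of the model; left, TCDD minus corn oil in wild type (red) and knockout (blue); right, knockout minus wild type with corn oil (grey) and TCDD (purple), filled where the adjusted p was under 0.05. The filled points are Ern1 and Eif2ak3 on the left and Asns (both treatments), Ddit3, Eif2ak3, Dnajb9 and Atf5 on the right.

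Markers of the liver's cells moved with the same comparison. Of 9 measured hepatocyte markers 5 fell after TCDD in wild type, with a summed level of 18.19 to 18.25 on oil arrays and 18.08 to 18.14 on TCDD arrays, and 3 of 7 endothelial markers fell (10.86 to 11.06 against 10.49 to 10.69). Of 32 measured markers of other cell types than hepatocytes 5 fell and none rose. Over all genes 2.56% were called lower, and 4.13% of those above the array medians. Below the array medians on average lay 2 of 4 cholangiocyte markers (Krt19, Krt7) and 2 of 3 lymphocyte markers (Cd3e, Cd79a). So did 1 of 2 neutrophil markers (S100a8) and 1 of 6 stellate markers (Des). The same held for 1 of 2 red cell markers (Hba-a1) and 1 of 2 pancreas markers (Cpa1). No other measured marker lay below the array medians. The hepatocyte markers were all above them, as the label liver requires. The part of cell makeup in the lower stress genes was not tested, and in whole liver fewer cells of a type and less RNA per cell cannot be told apart.

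Without TCDD, knockout liver differed from wild type in 1 gene of the list, Asns, against 2.34% of all genes called (3.73% of those above the array medians), and 1.4% and 2.23% called higher. Asns read 8.18, 8.99 and 8.50 in knockout and 5.83 to 6.60 in wild type with corn oil, with no overlap and a level 5.15-fold higher in knockout (2.36 ± 0.40, adjusted p = 0.00616 by limma). Its second probe set gave 2.67 (adjusted p = 0.00596). The call held without any 1 of the 17 arrays (2.15 to 2.55) and with scan day as a block (2.24, adjusted p = 0.0367), and the difference was 2.13 within scan day 1 (adjusted p = 0.587) and 2.27 within day 2 (adjusted p = 0.394). It did not pass in either day, each of which had 1 array in 1 of the arms.

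Ddit3 was also higher in 2 of 3 knockout oil arrays. It read 8.22, 8.23 and 6.79, the last within the wild-type range of 6.22 to 6.99. The difference of 1.17 ± 0.30 did not pass (adjusted p = 0.0860 by limma). Without the last array the difference was 1.64 (adjusted p = 0.00314 by limma). That array was picked here for its Ddit3 value, so this p-value lends no support. Atf5 was higher on every knockout oil array, at 12.40, 12.81 and 12.73 against 12.14 to 12.23 (0.46 ± 0.18, adjusted p = 0.396), and Atf4 read 11.50, 11.15 and 10.75 (0.41 ± 0.15, adjusted p = 0.336). The groups did not overlap for Asns and Atf5, both higher, against 5.2% of all genes and 8.05% of those above the array medians that were higher without overlap. Vldlr read 4.36, 5.55 and 4.78 in knockout with corn oil, 0.42 above wild type on average and overlapping it. The largest differences below 0 were those of Sel1l (9.63, 10.27 and 9.99 against 9.93 to 10.81 in wild type, -0.35), Chac1 (4.35, 4.37 and 4.35 against a lowest wild-type value of 4.33, -0.26), Manf, a secreted ER protein (12.06, 13.09 and 12.85 against 12.29 to 13.38, -0.25), and Herpud1 (11.87, 13.15 and 12.34 against 12.45 to 13.05, -0.25). None of these passed, and all overlapped. The 14 folding genes were split, 10 below and 4 above 0, with a median of -0.059, and single arrays set that split. Without knockout oil replicate 1, on which all 14 were low, 10 were above 0 and 4 below (median 0.059), and without wild-type oil replicate 1 there were 8 above and 6 below. Over the 36 genes the median was 0.012.

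With TCDD in both genotypes, knockout liver exceeded wild type in 5 of the 36 genes and was lower in none that passed. The share called higher was 4.57% of all genes (8.98% in either direction) and 7.26% of those above the array medians (14.4%). In either direction, 5 of 36 is near the share among genes above the array medians. An unadjusted p under 0.05 was found for 13 of 36 genes, and for 20 of the 86 member probe sets. Among all probe sets the count was 7139 of 45037. It was 6205 of the 23017 that exceeded the array median on at least 3 arrays. The groups did not overlap for 7 genes that were higher (Dnajb9, Herpud1, Eif2ak3, Atf4, Atf5, Ddit3 and Asns) and 1 that was lower (Ppp1r15a), against 6.43% and 8.46% of all genes and 10.2% and 11.9% of those above the array medians. This comparison shares the wild-type TCDD arrays with the treatment comparison above, so low values on those arrays enter both.

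**Figure D3:**
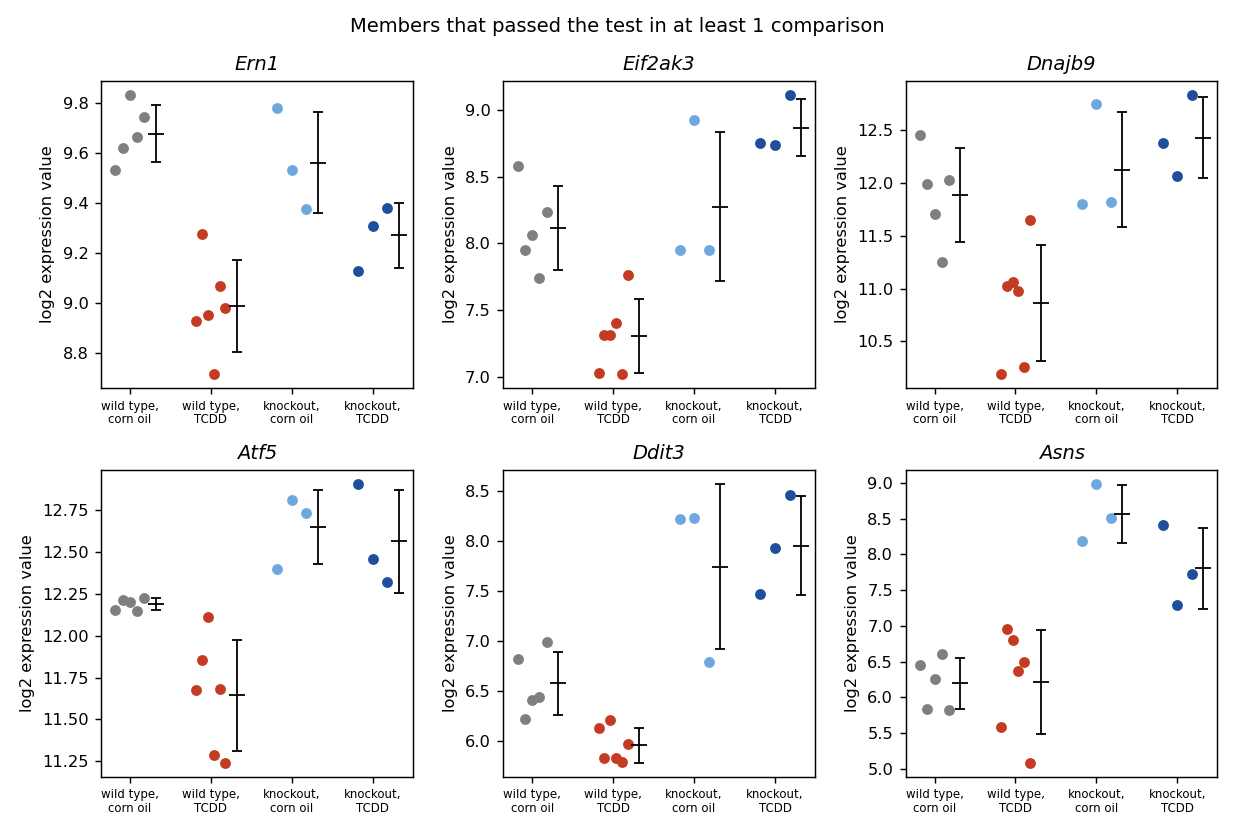
Log2 level on each array of the 6 genes that passed the test in at least 1 comparison, with a point for every array and the mean ± SD of the group beside the points; each panel has its own vertical axis. Asns and Ddit3 lie higher in both knockout groups than in wild type, apart from knockout oil replicate 3 for Ddit3, while Ern1, Eif2ak3 and Dnajb9 are lowest in wild type with TCDD.

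Ddit3 read 7.47, 7.93 and 8.46 on knockout TCDD arrays, against a highest wild-type TCDD value of 6.21, which is 3.97-fold higher (1.99 ± 0.29, adjusted p = 0.000636 by limma). Eif2ak3 read 8.75, 8.74 and 9.11 against a wild-type maximum of 7.76, or 2.95-fold higher (1.56 ± 0.23, adjusted p = 0.000674). Both kept their calls without any 1 of the 17 arrays (1.74 to 2.23 for Ddit3, 1.44 to 1.65 for Eif2ak3), with scan day as a block (1.92, adjusted p = 0.000525, and 1.54, adjusted p = 0.00344) and within scan day 2 (1.75, adjusted p = 0.00288, and 1.37, adjusted p = 0.0142). For Ddit3 the knockout was already 1.17 above wild type without TCDD, whereas for Eif2ak3 that difference was 0.16. Eif2ak3 has 1 of its 3 probe sets above the array medians and Ddit3 has 1 of 2, so these values rest on a single probe set each.

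Atf5 read 12.91, 12.46 and 12.32 in knockout with TCDD, all above the wild-type TCDD range (0.92 ± 0.17, 1.89-fold, adjusted p = 0.00447 by limma). Dnajb9 read 12.38, 12.07 and 12.84, again above it, and was 2.97-fold higher (1.57 ± 0.34, adjusted p = 0.0110). Asns read 8.42, 7.29 and 7.72 against a wild-type maximum of 6.96 (1.59 ± 0.38, 3.02-fold, adjusted p = 0.0225). These 3 calls were the less stable ones. Within scan day 2, the only day with both groups, none of the 3 passed (Atf5 1.10, adjusted p = 0.0895; Dnajb9 1.24, adjusted p = 0.212; Asns 1.67, adjusted p = 0.249), while all 3 passed with scan day as a block.

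Without knockout TCDD replicate 1, whose Cyp1a1 level goes against its label, Asns no longer passed (1.29, adjusted p = 0.130) and Ddit3 (2.23), Eif2ak3 (1.62), Dnajb9 (1.59) and Atf5 (0.75) did. Without knockout TCDD replicate 3, Asns (adjusted p = 0.0737) and Dnajb9 (adjusted p = 0.0776) were lost. Without wild-type TCDD replicate 6 the 5 genes kept their calls and Herpud1 joined them. Herpud1 read 12.64, 12.71 and 13.13 in knockout with TCDD, all above the wild-type TCDD range. Its representative probe set did not pass with all arrays (0.90 ± 0.26, adjusted p = 0.0572), and its second probe set did (0.91 ± 0.24, adjusted p = 0.0367).

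In the same comparison, the 14 folding genes were all above 0, with a median of 0.18, and 1 of them, Dnajb9, passed. Among genes above the array medians 55.9% were below 0. The count depended on single arrays, with 10 of 14 above 0 without knockout TCDD replicate 1 and 11 of 14 without wild-type TCDD replicate 6, and it was 9 of 14 with array weights. Edem1 (0.47), Syvn1 (0.89) and Atf4 (0.46; 10.80, 10.84 and 11.08 in knockout) were higher and did not pass. Below 0 lay Vldlr (-0.48), Ppp1r15a (-0.28; 4.64, 4.61 and 4.62 in knockout), Psat1 (-0.19) and Sesn2 (-0.19), none of which passed. Of 9 hepatocyte markers 5 were higher in knockout here, and of 7 endothelial markers 2 were higher and 1 lower. Of 6 stellate markers 3 were higher and 1 lower. Over all genes 4.57% were called higher and 4.41% lower, and 7.26% and 7.13% of those above the array medians. The part of these markers in the differences of the list was not tested.

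Within knockout liver, no gene of the list passed for TCDD against corn oil with limma (2 of 36 at an unadjusted p under 0.05), and over all genes the share called was 0.011% (0.00891% of those above the array medians). By probe set, 6 of the 86 of the members had an unadjusted p under 0.05, against 1263 of all 45037. With 3 arrays a group, the absence of calls does not show that levels were alike. Of the 36 genes, 10 lay above 0 and 26 below, but 16 above and 20 below with scan day as a block. The largest differences below 0 were those of Asns (-0.75 ± 0.44), Trib3 (-0.44 ± 0.45), Vldlr (-0.36 ± 0.41) and Nupr1 (-0.32 ± 0.21). Both probe sets of Asns and of Trib3 were lower. The other Vldlr probe set above the array medians was higher (0.15), and the second Nupr1 probe set differed by -0.0047. Trib3 read 4.08, 4.94 and 6.53 with corn oil and 4.89, 4.88 and 4.46 with TCDD, so that only the last oil array lay above the TCDD range by a wide margin. The largest above 0 were those of Eif2ak3 (0.59 ± 0.27), Herpud1 (0.37 ± 0.30), Dnajb9 (0.30 ± 0.39) and Ddit3 (0.21 ± 0.34), and Ern1 differed by -0.29 ± 0.13. Nupr1 read 4.58, 5.35 and 4.62 with corn oil and 4.56, 4.58 and 4.45 with TCDD, and Vldlr read 4.91, 4.48 and 4.22 with TCDD. Without replicate 1, Asns differed by -1.06, Vldlr by -0.55, Ddit3 by 0.45, Eif2ak3 by 0.65 and Ern1 by -0.22, and no gene passed.

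The sensors, Hspa5 and Xbp1 did not pass in knockout liver. Hspa5 read 14.28, 14.81 and 14.72 with corn oil and 14.55, 14.22 and 14.82 with TCDD, Atf6 read 9.22, 9.22 and 9.34 against 9.12, 9.40 and 9.60, and Xbp1 read 12.54, 12.62 and 12.74 against 12.57, 12.38 and 12.17. Ern1 read 9.78, 9.53 and 9.38 with corn oil and 9.13, 9.31 and 9.38 with TCDD, so that the groups met only at their nearest arrays, and Xbp1 differed by -0.26. Only 5 genes were separated without overlap, all lower with TCDD (Nupr1, Ppp1r15a, Chac1, Psat1 and Fgf21). The same was seen for 36.8% of all genes and 16.1% of those above the array medians, so these 5 lie near the background.

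The difference between the TCDD effects, knockout minus wild type, was tested directly. None of the 36 genes passed with limma (6 at an unadjusted p under 0.05), against 1.63% of all genes called and 2.6% of those above the array medians. By probe set, 9 of the 86 of the members had an unadjusted p under 0.05, against 3516 of all 45037. Eif2ak3 had the largest difference and the lowest adjusted p of the list (1.40 ± 0.33, adjusted p = 0.0695). It passed with a level filter (adjusted p = 0.0317), with array weights (1.59, adjusted p = 0.00418), without wild-type TCDD replicate 6 (1.49, adjusted p = 0.0438) and without knockout oil replicate 2 (1.72, adjusted p = 0.0120), Atf6 passed without wild-type oil replicate 3, and for Eif2ak3 within scan day 2 the difference was 1.34 (adjusted p = 0.219). Dnajb9 (1.33 ± 0.49, adjusted p = 0.380) and Herpud1 (1.15 ± 0.37, adjusted p = 0.259) came next, and Vldlr (-0.90) and Asns (-0.77) were lowest. All 14 folding genes were above 0 with a median of 0.26, but within scan day 2, with 1 knockout oil array, they were split 7 to 7, and 11 were above 0 without knockout oil replicate 1 and 13 without knockout TCDD replicate 1. In the fit with all arrays, equal array weights and no filter, no member passed this test. For Eif2ak3 the call depended on the setting.

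The folding genes shifted together from array to array within a group. On wild-type oil replicate 1 all 14 lay above their group means, by 0.41 on average, and on replicate 3 of that group 13 of 14 lay below, by 0.42. Among wild-type TCDD arrays all 14 were above the mean on replicate 2 (0.33) and 13 below it on replicate 4 (-0.29). All 14 were below it on knockout oil replicate 1 (-0.31), and 12 were below it on knockout TCDD replicate 2 (-0.29). On wild-type TCDD replicate 6, 10 were below the group mean (-0.29). Wild-type oil replicate 5 shifted little (-0.0089, 8 above and 6 below). The larger shifts are about as large as the median TCDD difference of the folding genes in wild type, -0.33. They are shifts of single arrays, whereas that difference compares means over 5 and 6 arrays. On knockout oil replicate 1 the degradation genes were low as well, by 0.46, all 4 of them.

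**Figure D4:**
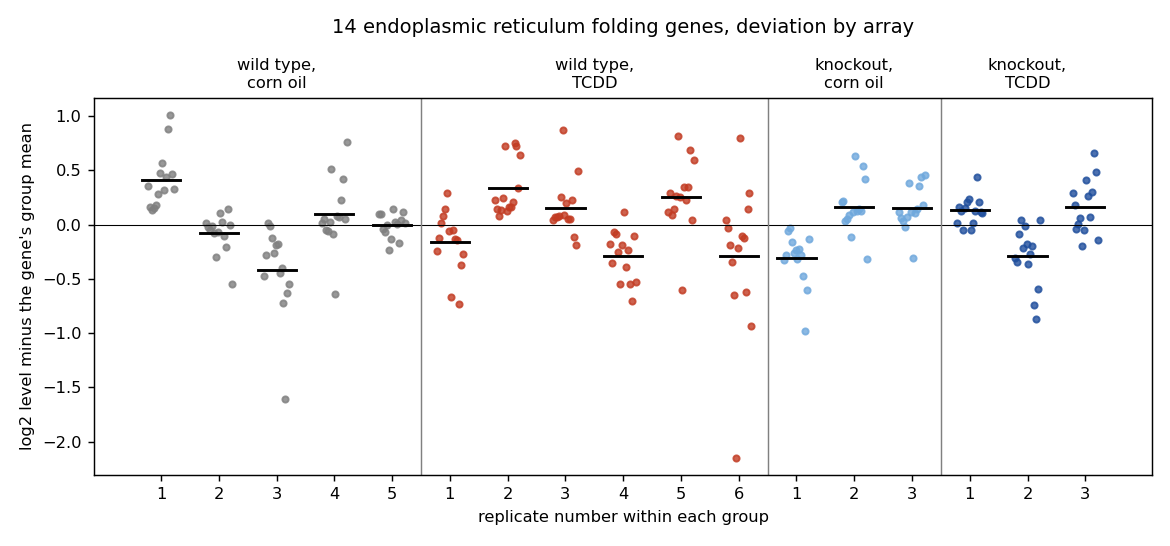
Each point is 1 of the 14 folding genes on 1 array, as log2 level minus that gene's mean over the arrays of its group; black bars are the mean of the 14 genes on the array. The bars run from -0.42 (wild-type oil replicate 3) to 0.41 (wild-type oil replicate 1), and the lowest point is Pdia4 on wild-type TCDD replicate 6.

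Members varied in width as well. Over the 17 arrays Calr spanned 0.37 and Phgdh 0.38, whereas Asns spanned 3.90, Pdia4 3.38, Ddit3 2.66 and Dnajb9 2.65. Phgdh gave the same value, 5.33, on all wild-type oil arrays but replicate 4, so its narrow span is not shown to be a steady level. The wide span of Asns lay mainly between genotypes and that of Dnajb9 within wild type, where its 11 arrays ran from 10.19 to 12.46. The 8 genes with an ER stress element had no call in any of the 5 comparisons. Their TCDD differences in wild type were all below 0, with a median of -0.29, the same as over all 36 genes.

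Of 69 further genes of the same pathways, 65 were measured. After TCDD in wild type 6 rose and 1 fell, while 3.75% of all genes and 6.05% of those above the array medians were called higher. The 7 calls of 65 lie near the 10.2% called in either direction among genes above the array medians. The 4 largest rises were those of Shmt2, the mitochondrial serine hydroxymethyltransferase (0.60), Lars, an aminoacyl-tRNA synthetase (0.49), Derl1, a channel component of ER-associated degradation (0.45), and Slc3a2, the heavy chain of amino acid exchangers (0.41). The disulfide isomerase Pdia5 fell (-0.45). Of the 32 measured genes among these that belong to the ATF4 pathway, 5 rose and none fell.

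Mars1 (-0.63 ± 0.10), Shmt2 (-0.69 ± 0.12) and Slc3a2 (-0.50 ± 0.11) were also the 3 of these 65 with a called difference between the TCDD effects, all below 0, against 1.25% of all genes and 2.0% of those above the array medians. In knockout liver none of the 65 passed for TCDD. With corn oil, knockout exceeded wild type in Cth, cystathionine gamma-lyase (0.84), and Erlec1, an ER lectin (0.38). There 1.4% of all genes and 2.23% of those above the array medians were called higher. With TCDD, knockout was higher in Gpt2, an alanine aminotransferase (1.08), and Cbs, cystathionine beta-synthase (0.78). It was also higher in Pdia5 (0.57) and Ppp1r15b, the constitutive eIF2 phosphatase subunit (0.47). In this comparison 4.57% of all genes and 7.26% of those above the array medians were called higher. Knockout was lower in 6, led by Derl1 (-0.73), Mars1 (-0.70), Shmt2 (-0.69) and Gars (-0.37). The share called lower was 4.41% of all genes and 7.13% of those above the array medians.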

How the data were processed

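Liver total RNA was measured on 17 Affymetrix arrays. The authors deposited log2 expression values. RMA, GCRMA and affy 1.5.8 appear in the submitters' processing notes, and the sources used here do not tell which method gave these values. They ran from 0.333 to 15.9, with array medians of 3.08 to 3.19. Normalization across arrays hides a change shared by most genes. Arrays have no read depth, and their number limits the precision.

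Groups came from sample titles. After 64 control probe sets were left out, 45037 were fitted without a level filter with limma 3.58.1 in R 4.3.3 (lmFit, eBayes, a mean for each of 4 groups, 13 residual and 1.00 prior degrees of freedom), and p-values were Benjamini-Hochberg adjusted over all of them; the code was tested on simulated data. Probe sets naming several genes were not used, which left out 2 for Phgdh. Promoters are RefSeq's (GRCm38.p6). Values are given per array for genes that passed a test, the 4 largest differences each way in a comparison and 9 fixed genes. Members and lists were chosen with earlier results of these data known, and the background of genes above the array medians and the counts by role under other settings were added after seeing the data. Same-numbered replicates did not deviate together (correlations from -0.269 to 0.135), so numbers pair nothing. Alternatives were other scaling, a level filter, array omission, replicate and scan-day blocks, single scan days, array weights, an intensity trend, only the groups compared and means over probe sets.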

Additional observations from a re-analysis of the deposited data

Results flagged for a closer look

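Of 72 sets of values (36 genes in the wild-type groups of 5 and 6 arrays) 13 had 1 array far from the rest by Dixon's criterion, which chance alone gives for about 1 set in 20. Among folding genes and sensors these were Canx (13.03) and Pdia6 (12.22) on wild-type oil replicate 1, both high, and Atf6 on wild-type oil replicate 3 (8.67), low. On wild-type TCDD replicate 6, the array with the large 3' excess, Nupr1 (4.88), Atf3 (2.58) and Phgdh (5.39) were high. The others were Nupr1 (5.36) and Phgdh (5.47) on wild-type oil replicate 4, Ppp1r15a on wild-type oil replicate 3 (4.12) and wild-type TCDD replicate 5 (5.53), Sesn2 on wild-type oil replicate 1 (6.22), Chac1 on wild-type TCDD replicate 1 (3.96) and Fgf21 on wild-type TCDD replicate 3 (2.35). Atf3 and Fgf21 are below the array medians in every group.

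The TCDD effects of 3 further pathway genes differed between genotypes by the test of that difference: Mars1 (-0.63, adjusted p = 0.00553 by limma), Shmt2 (-0.69, adjusted p = 0.0139) and Slc3a2 (-0.50, adjusted p = 0.0389), each risen after TCDD in wild type (0.32, 0.60 and 0.41) and with a difference below 0 that did not pass in knockout (-0.31, -0.088 and -0.089). Mars1 and Shmt2 passed in all 17 fits that leave out 1 array, and Slc3a2 in 4 of them.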

How the results depend on the processing

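Over 180 combinations of gene and comparison, 4886 alternative values were computed. None turned a called direction, 27 lost a call, 55 gained one, and 250 changed sign without being called. Of 36 genes, those called for TCDD in wild type (2) were 7 with a level filter and with array weights, 5 with only the groups compared and with means over probe sets, 1 with a replicate block, with a scan-day block and within scan day 2, and 0 within scan day 1; omitting 1 array gave 1 to 4, with 4 without wild-type oil replicate 4 or wild-type TCDD replicate 6, 3 without wild-type oil replicate 3 or any of 5 knockout arrays, and 1 without wild-type oil replicate 1, 2 or 5 or wild-type TCDD replicate 1, 2 or 4. With corn oil (1), knockout against wild type gave 2 with the filter and with means over probe sets, 0 within scan day 1 or 2, and 1 to 2 on omission (2 without knockout oil replicate 3). With TCDD (5), it gave 8 with the filter, 2 with a replicate block and within scan day 2, 3 with only the groups compared, and 3 to 7 on omission (3 without knockout TCDD replicate 3, 7 without knockout oil replicate 1). The difference of TCDD effects (0) gave 1 with the filter, 2 with array weights and 0 to 1 on omission. TCDD in knockout gave 0 throughout. The number of all genes called moved with the setting too. For TCDD in wild type it was 1149 of 18193 in the unchanged fit and 1502 of 11686 with the filter. Array weights gave 1354, only the groups compared 902 and means over probe sets 1246, each of 18193. For genotype with TCDD it was 1634 of 18193, and 2077 of 11686 with the filter. For the difference of effects it was 297 of 18193, 398 of 11686 with the filter and 645 of 18193 with array weights.

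The numbers of probe sets called moved by over 1.5 times for some settings, and for each the cause was not tested. For TCDD in wild type (1882) they were 456 and 564 within scan days 1 and 2. For TCDD in knockout (6) they were 51 with array weights, 255 within scan day 2, 1 with a scan-day block, 0 with a replicate block, with only the groups compared and with means over probe sets, and 1 to 34 on omission (13 to 34 without any 1 knockout array). For genotype with corn oil (654) they were 1310 with array weights, 347 with a replicate block, 294 within scan day 1 and 404 without knockout oil replicate 1, and for genotype with TCDD (2664) 4768 with array weights, 1664 with a replicate block and 1090 within scan day 2. For the difference of effects (501) they were 1071 with array weights, 239 with a scan-day block, 310 within scan day 2 and 333 without knockout oil replicate 1. The split of higher and lower calls moved for genotype with corn oil from 393 and 261 to 323 and 349 with quantile normalization.

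The replicate block, which rests on numbers that do not pair these arrays, lost Eif2ak3 for TCDD in wild type (adjusted p = 0.0873) and Dnajb9 (0.0557), Atf5 (0.0603) and Asns (0.138) for genotype with TCDD. Array number, 3 in each knockout group, limits what can be called, and a difference within the spread is not shown to be absent.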
